A study of Mus musculus with 2 samples.

Results

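The 10 genes described here include 2 beta-thymosins (Tmsb4x and Tmsb10) and the cytoplasmic actins (Actb and Actg1). The others encode proteins that bind actin or sever, cap, branch or anchor its filaments (Pfn1, Cfl1, Gsn, Capza1, Arpc2 and Ezr). All 10 were chosen by gene symbol, with their copy numbers in these libraries already known. Each was found among the 14678 genes of the deposited table. The values that chose them are therefore given as a description, without a test. The uterine RNA was measured by digital gene expression (DGE) profiling, which counts short sequence tags per gene, in 1 Dox+ library and 1 Dox- library.

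All mice of both groups were double transgenic (VEGFtetO/tetO/beta-AKtg/wt). They carried tet operators in the VEGF promoter and a tetR-Krab repressor under the beta-actin promoter, which is active in nearly all cells. Dox+ mice received doxycycline chow, which releases the repressor, and are labelled VEGF-normal (wild type) although they carry the same alleles. Their adult Dox- littermates had been taken off doxycycline a few weeks after birth and are labelled VEGF-repression. Uteri were collected at gestation day 2.5 (G2.5), before implantation, and RNA of 3 uteri per condition was pooled into 1 library. A difference between the libraries therefore has no replicate check, and none of the differences below was tested between conditions. VEGF repression acted throughout the mouse and not in the uterus alone. The species and extent of the beta-actin promoter in the transgene are not given in the sources used here, and whether the transgene adds tags to the count of Actb was not tested.

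Actin exists as monomers and as filaments that grow and shrink at their ends. Beta-thymosins hold monomers in reserve, profilin hands them to growing ends, cofilin and gelsolin cut filaments, capping protein blocks fast-growing ends, the Arp2/3 complex starts branches, and ezrin ties filaments to the cell membrane. In the uterus, actin filaments serve contraction of the myometrium, the shape of the luminal epithelium with its microvilli, and the movement of stromal cells and leukocytes.

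The coding sequences of both thymosins are shown because these small genes differed between the libraries in opposite directions. Each coding sequence has 135 bases, stop codon included, and encodes 44 residues. In this sense-strand alignment, read from GENCODE transcripts on NCBIM37 (the assembly named mm9 by UCSC), capitals mark the 40 bases that differ.
Tmsb4x: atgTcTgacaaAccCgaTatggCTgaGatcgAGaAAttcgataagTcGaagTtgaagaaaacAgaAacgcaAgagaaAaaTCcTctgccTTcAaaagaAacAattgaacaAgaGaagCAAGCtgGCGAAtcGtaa
Tmsb10: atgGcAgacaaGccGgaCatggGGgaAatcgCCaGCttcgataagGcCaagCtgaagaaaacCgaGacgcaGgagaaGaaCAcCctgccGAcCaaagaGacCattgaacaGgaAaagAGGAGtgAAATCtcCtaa
The sequences were identical at 95 bases (70.4%). Of 27 codons that differed, 11 encoded another residue. The first 60 coding bases of the cytoplasmic actins are shown because Actb and Actg1 are closer to each other in sequence than the thymosins are. Tags are counted for each gene apart. Their positions were not examined, so the bases shown do not tell how well tags separate the genes. Capitals mark the 9 bases of this stretch that differ.
Actb: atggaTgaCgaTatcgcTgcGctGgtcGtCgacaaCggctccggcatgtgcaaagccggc
Actg1: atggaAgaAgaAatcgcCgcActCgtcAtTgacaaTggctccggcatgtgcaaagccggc
Over all 1128 coding bases the actins were 88.7% identical, and only 4 of 125 differing codons encoded another residue. The table counts unambiguous tags alone, so that a tag shared by several reference genes was assigned to none of them. Tags from processed copies of these genes that are absent from the reference transcripts could still be counted here.

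The table held 4437506 counted tags for Dox+ and 4218459 for Dox-. These were 74.1% and 72.2% of the 5985925 and 5844314 clean tags on which the authors' TPM values rest. Levels are given as copies per 1000000 clean tags (CPM), without a correction for length. The fold change is the CPM of Dox- over that of Dox+, and its 95% interval is the exact Clopper-Pearson interval of the split of the copies. These intervals cover counting error alone. Vegfa, the targeted gene, had 247 copies in Dox+ and 125 in Dox-, 1.93-fold lower in Dox-. Of the 6547 genes with at least 200 combined copies, 15.2% were at least 1.5-fold higher in Dox- and 14.7% at least 1.5-fold lower, with a median log2 ratio of 0.03.

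All 10 genes had at least 200 combined copies. Of them 2, Ezr and Capza1, were at least 1.5-fold higher in Dox- and 2, Tmsb4x and Gsn, at least 1.5-fold lower. The other 6 stayed within 1.5-fold, 3 higher (Tmsb10, Arpc2 and Cfl1) and 3 lower (Actg1, Actb and Pfn1). Their median log2 ratio was 0.04. The exact Poisson 95% intervals of the levels cover counting error alone and are narrow at these copy numbers. For Actg1, with a fold change of only 0.870, they were 1403 to 1464 CPM in Dox+ and 1218 to 1276 CPM in Dox-. Separate intervals therefore do not show a difference between the conditions.

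**Figure D1:**
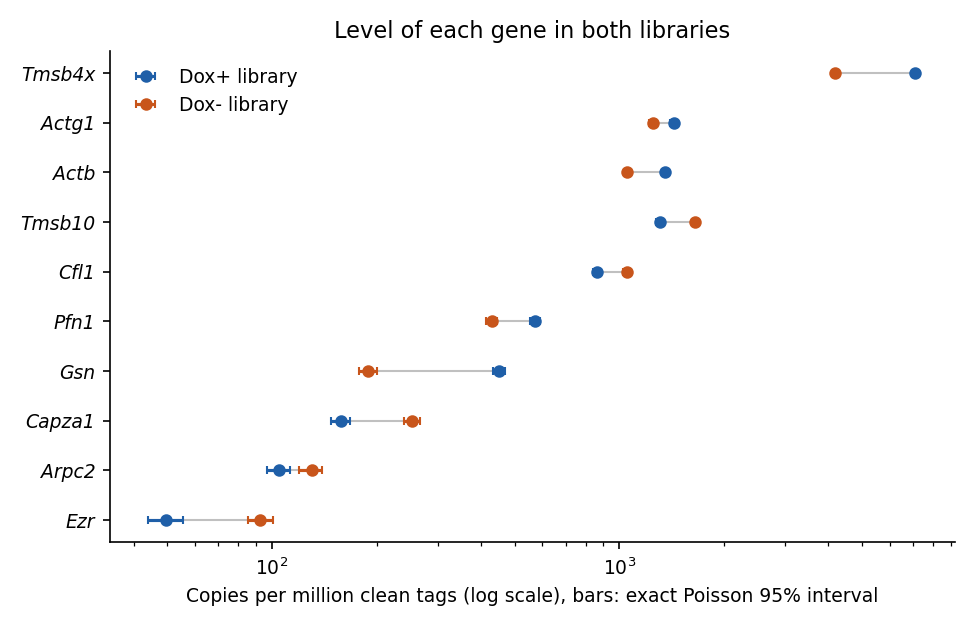
Level of each of the 10 genes in the Dox+ library (blue) and the Dox- library (orange), in copies per 1000000 clean tags (CPM) on a log axis. Bars are exact Poisson 95% intervals, which cover counting error only. Tmsb4x was highest in both libraries at 7095 CPM in Dox+ and 4188 in Dox-, while Ezr was lowest in both at 49.6 and 92.7.

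Tmsb4x encodes thymosin beta 4, the main actin-sequestering peptide of many cells. The gene lies on the minus strand of chromosome X, 163645025 to 163647247 on NCBIM37. Its tags were counted 42469 times in Dox+ and 24477 times in Dox-. It ranked second of all genes in Dox+ and sixth in Dox- by copies. The level was thus higher in Dox+, at 7095 CPM (95% interval 7027 to 7163) against 4188 CPM (4136 to 4241) in Dox-. The fold change was 0.590 (0.581 to 0.600), or 1.69-fold lower in Dox-. Of the 6547 genes compared, 9.71% had a lower log2 ratio than Tmsb4x.

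Tmsb10 encodes thymosin beta 10, a related monomer-binding peptide (chromosome 6, 72907341 to 72908742, minus strand). Its copies were 7820 in Dox+ and 9652 in Dox-. The Dox- library was the higher one, with a fold change of 1.26 (1.23 to 1.30), and the rank among all genes went from 79 to 44. The 2 thymosins thus differed in opposite directions, Tmsb4x past 1.5-fold and Tmsb10 within it.

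Within a library, the ratio of Tmsb4x to Tmsb10 copies does not depend on the library size. It was 5.43 (95% interval 5.30 to 5.56) in Dox+ and 2.54 (2.48 to 2.60) in Dox-. Tmsb4x therefore remained the more abundant thymosin in both libraries, by a smaller margin in Dox-. Together they held 50289 copies in Dox+ and 34129 in Dox-, of which Tmsb4x made up 84.4% and 71.7%. The ratio of thymosin copies to copies of Actb and Actg1 was 3.02 (2.96 to 3.07) in Dox+ and 2.54 (2.49 to 2.59) in Dox-.

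The genes closest to each thymosin were found by the Euclidean distance of log2 CPM over the 2 libraries. The nearest to Tmsb4x were Tpt1 at a distance of 0.50, Rplp1 at 0.63 and Rps2 at 0.63. Of these, Rps2 (31446 and 17846 copies) also had a similar log2 ratio, -0.78 beside -0.76 for Tmsb4x. Among the nearest to Tmsb10 were Rpl9 at 0.15 and Itm2b at 0.22. With 2 libraries this closeness describes level and ratio only.

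The cytoplasmic actins form the filaments of nearly all non-muscle cells. Actg1 (chromosome 11, 120207004 to 120209856, minus strand) had 8580 copies in Dox+ and 7287 in Dox-. Actb (chromosome 5, 143664794 to 143668433, minus strand) had 8095 and 6167. Both were higher in Dox+, with fold changes of 0.870 (0.843 to 0.898) for Actg1 and 0.780 (0.755 to 0.807) for Actb. Neither difference reached 1.5-fold. The ratio of Actb to Actg1 copies within a library was 0.943 (0.915 to 0.973) in Dox+ and 0.846 (0.818 to 0.876) in Dox-, so that Actg1 had more copies than Actb in each.

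The muscle actins are the other members of the actin family. Of 6 actin genes, 5 had at least 200 combined copies, with a median log2 ratio of -0.51, and 1 was past 1.5-fold. Actg2, the smooth muscle gamma actin, had 7436 copies in Dox+ and 5086 in Dox-, and Acta1, the skeletal muscle alpha actin, had 3385 and 1241. Acta1 was 2.66-fold lower in Dox-. Acta2, the smooth muscle alpha actin, with 4225 and 2786 copies, was 1.48-fold lower. Each of these 5 actins was thus lower in Dox-, and the cytoplasmic pair was the closest to equality.

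Pfn1 encodes profilin 1, which binds monomers and adds them to filament ends (chromosome 11, 70465352 to 70468146, minus strand). It had 3421 copies in Dox+ and 2506 in Dox-, a fold change of 0.750 (0.712 to 0.790). Cfl1 encodes cofilin 1, which severs and disassembles filaments (chromosome 19, 5490485 to 5494029, plus strand). Its copies were 5154 in Dox+ and 6146 in Dox-, a fold change of 1.22 (1.18 to 1.27). Profilin was thus higher in Dox+ and cofilin in Dox-, and their ratio within a library was 0.664 (0.635 to 0.693) in Dox+ and 0.408 (0.389 to 0.427) in Dox-.

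Gsn encodes gelsolin, a calcium-dependent protein that severs and caps filaments (chromosome 2, 35111927 to 35163420, plus strand). It had 2700 copies in Dox+ and 1107 in Dox-. Its level was 451 CPM (434 to 468) in Dox+ and 189 CPM (178 to 201) in Dox-. This was the widest difference of the 10 genes, 2.38-fold (2.22 to 2.56) lower in Dox-. A lower log2 ratio was found for 3.10% of the genes compared. The intracellular and secreted forms of gelsolin come from the same gene, and the table does not separate them.

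Capza1 encodes a subunit of the capping protein of fast-growing filament ends (chromosome 3, 104625697 to 104667423, minus strand). It had 945 copies in Dox+ and 1478 in Dox-, so that its rank among all genes went from 751 to 436. The fold change was 1.60, and its counting interval, 1.48 to 1.74, reached below 1.5. Gsn and Capza1, which both cap filaments, thus stood on opposite sides of the 1.5-fold limits.

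Arpc2 encodes a subunit of the Arp2/3 complex (chromosome 1, 74283071 to 74314783, plus strand). With 626 copies in Dox+ and 757 in Dox-, its fold change was 1.24 (1.11 to 1.38). Ezr encodes ezrin, a linker between actin and the membrane that is typical of epithelial microvilli (chromosome 17, 6942390 to 6987133, minus strand). It had 297 copies in Dox+ and 542 in Dox-. Its level was 49.6 CPM (44.1 to 55.6) in Dox+ and 92.7 CPM (85.1 to 101) in Dox-, the lowest of the 10 genes in both libraries. The fold change of Ezr was 1.87 (1.62 to 2.16), and 93.9% of the genes compared had a lower log2 ratio.

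**Figure D2:**
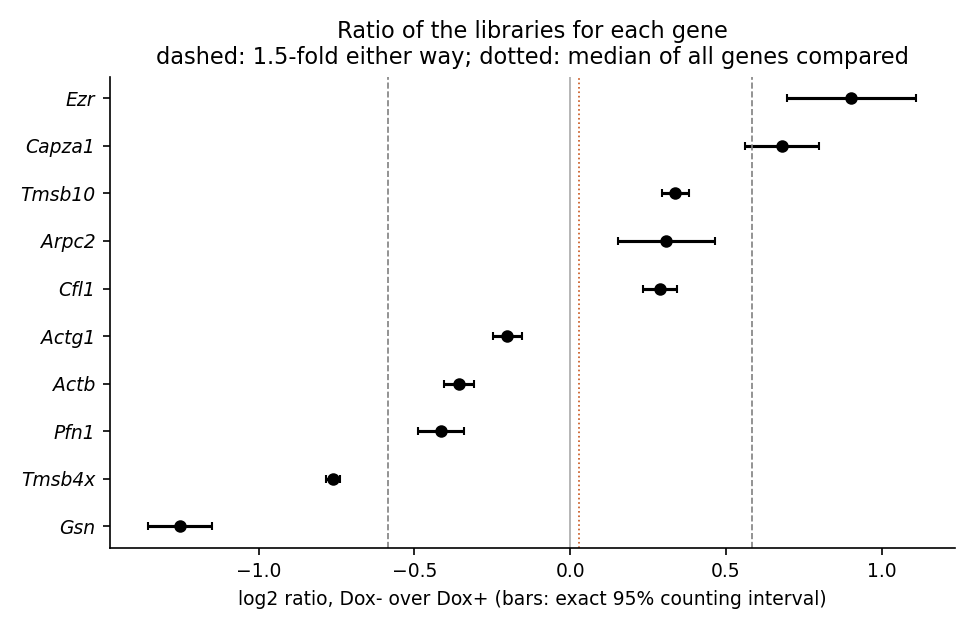
Log2 ratio of Dox- over Dox+ for each of the 10 genes, with exact 95% counting intervals. The dashed lines mark 1.5-fold in each direction and the dotted line the median of all genes compared, 0.03. Gsn (-1.25) and Tmsb4x (-0.76) lie left of the dashed lines, Capza1 (0.68) and Ezr (0.90) lie right of them, and the interval of Capza1 crosses its line.

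Together the 10 genes held 80107 copies in Dox+ and 60119 in Dox-, or 1.81% and 1.43% of the counted tags. Tmsb4x alone made up 53.0% of their copies in Dox+ and 40.7% in Dox-. The share of counted tags that fell to the other 9 genes was nearly the same in the libraries, 0.848% for Dox+ and 0.845% for Dox-. The summed fold change was 0.769 (0.761 to 0.777) with Tmsb4x and 0.970 (0.956 to 0.984) without it.

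By copies, the order in Dox+ was Tmsb4x, Actg1, Actb, Tmsb10, Cfl1, Pfn1, Gsn, Capza1, Arpc2 and Ezr. In Dox- Tmsb10 stood at place 2 in place of 4, and Capza1 stood before Gsn. The Poisson intervals of neighbours in this order overlapped for Actb and Tmsb10 in Dox+, at 1352 CPM (1323 to 1382) and 1306 CPM (1278 to 1336). They also overlapped for Actb and Cfl1 in Dox-, at 1055 CPM (1029 to 1082) and 1052 CPM (1025 to 1078), and for no other neighbours. Tag profiling counts a transcript by its tag and not by its length, but the sample descriptions mention fragmented mRNA. The order was therefore also taken per kilobase of the longest annotated transcript. On that scale Tmsb4x stood at 8212 CPM per kilobase in Dox+ and 4847 in Dox-, and Tmsb10 was second in both libraries with 1893 and 2394.

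**Figure D3:**
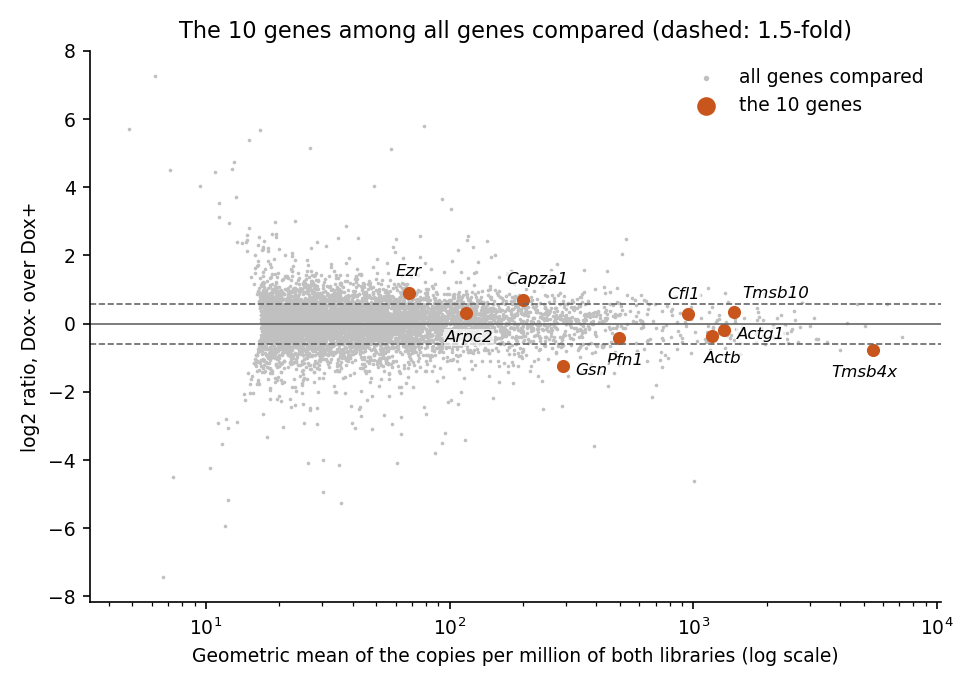
Log2 ratio of Dox- over Dox+ against the geometric mean level of both libraries, in CPM on a log axis, for the 6547 genes with at least 200 combined copies (grey) and the 10 genes (orange). Copies below 3 were raised to 3 for the ratio, and dashed lines mark 1.5-fold. Tmsb4x lies near the right edge, below the lower dashed line, while Ezr is the least abundant of the 10.

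The partners of these proteins were followed with 10 hand-written lists of actin genes, which share no gene with each other and include the 10 genes themselves. They name 163 genes, of which 151 were in the table and 99 had at least 200 combined copies. Of the 99, 14 were at least 1.5-fold higher in Dox- (14.1%) and 13 lower (13.1%), close to the shares of all genes, with a median log2 ratio of -0.05. Without the 10 genes, 12 of 89 were higher and 11 lower. Within each list, the genes named are those with the most copies or the highest or lowest fold change, and further genes that account for a count were chosen after their values were seen.

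Among the 9 monomer-binding genes compared the median log2 ratio was -0.06, with Mtss1 past 1.5-fold higher and Tmsb4x and Pfn2 past 1.5-fold lower. Pfn2, the second profilin, was 4.01-fold (3.15 to 5.15) lower in Dox-, with 345 copies in Dox+ and 84 in Dox-. Both profilins were thus lower in Dox-, Pfn2 by more than Pfn1, whose difference stayed within 1.5-fold. Mtss1, which binds monomers and membranes, had 86 and 140 copies, 1.67-fold higher in Dox-. A further thymosin, Tmsb15b1, was counted 3 times in Dox+ and 0 times in Dox-, too few for a fold change.

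Among cofilin and its regulators the median log2 ratio was 0.26 over 10 genes, with 1 higher and 1 lower. Dstn, the cofilin relative destrin, had 6666 copies in Dox+ and 5463 in Dox-, and Wdr1, which helps cofilin disassemble filaments, had 1190 and 1261. Neither was past 1.5-fold. Gmfb (79 and 154 copies), of the glia maturation factors that remove filament branches, was the gene at least 1.5-fold higher. Cotl1 (456 and 223), a small filament-binding relative of cofilin, was 2.0-fold lower.

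Of 12 genes of the capping and gelsolin family, 4 were past 1.5-fold lower (33.3%) and 2 higher (16.7%). Over all genes compared the shares were 14.7% and 15.2%. Gsn and Capza1, chosen with their values known, are themselves in these counts. Besides Gsn, the lower ones were Add3 (700 and 452 copies), an adducin, Capg (286 and 184), a gelsolin relative that caps filaments, and Lmod1 (198 and 104), a leiomodin of smooth muscle. Besides Capza1, Tmod3 (537 and 812), a cap of slow-growing ends, was higher. The partner of Capza1 in capping protein, Capzb, had 1211 and 1214 copies, with a fold change of 1.03 (0.947 to 1.11). Capza2, the second alpha subunit, had 497 and 538 copies, so that Capza1 was the one subunit of the 3 past 1.5-fold.

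Of the Arp2/3 complex, 9 genes had enough copies, and their median log2 ratio was 0.18. Arpc1b, with 1499 copies in Dox+ and 2348 in Dox-, was 1.60-fold (1.5 to 1.71) higher and was the one subunit past 1.5-fold. Actr3 had 2031 and 2245 copies, Arpc4 735 and 972, and Arpc5, with the lowest fold change, 795 and 599. Arpc2 was thus one of several subunits slightly higher in Dox-. Among activators of the complex and regulators of branches, 1 of 11 genes was past 1.5-fold, Wasf1, which had 190 copies in Dox+ and 322 in Dox-. Cyfip1, Coro1c and Coro1b, with the most copies of that list, had fold changes of 1.22, 0.773 and 0.888.

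Ezr and the other members of its family stood on opposite sides of equality. Rdx (radixin) had 1094 copies in Dox+ and 795 in Dox-, and Msn (moesin) had 577 and 395. Their fold changes were 0.744 (0.678 to 0.816) and 0.701 (0.615 to 0.798), below 1 where that of Ezr was above 1. Cd44, a membrane partner of these proteins, had 1078 and 633 copies and was 1.66-fold lower. In this list of 8 genes Ezr was the one past 1.5-fold higher and Cd44 the one past 1.5-fold lower, and the median log2 ratio was -0.28.

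The list of filament crosslinkers also holds tropomyosins and other filament-binding genes. Over its 19 genes the median log2 ratio was -0.06. In it 2 genes were past 1.5-fold higher, Tpm3 among them, and Pls3 and Lima1 past 1.5-fold lower. Flna, which crosslinks filaments into networks, had the most copies, 4382 and 3935, followed by Tagln2 with 2400 and 3009 and Actn4 with 2133 and 2441. Tpm3, a tropomyosin, was 1.84-fold higher in Dox-, and Pls3, a plastin, 1.75-fold lower. Of 3 formin and Ena/VASP genes with enough copies, Evl (661 and 378 copies) was 1.71-fold lower, while Vasp had 649 and 541 copies and Fmnl2 223 and 253.

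**Figure D4:**
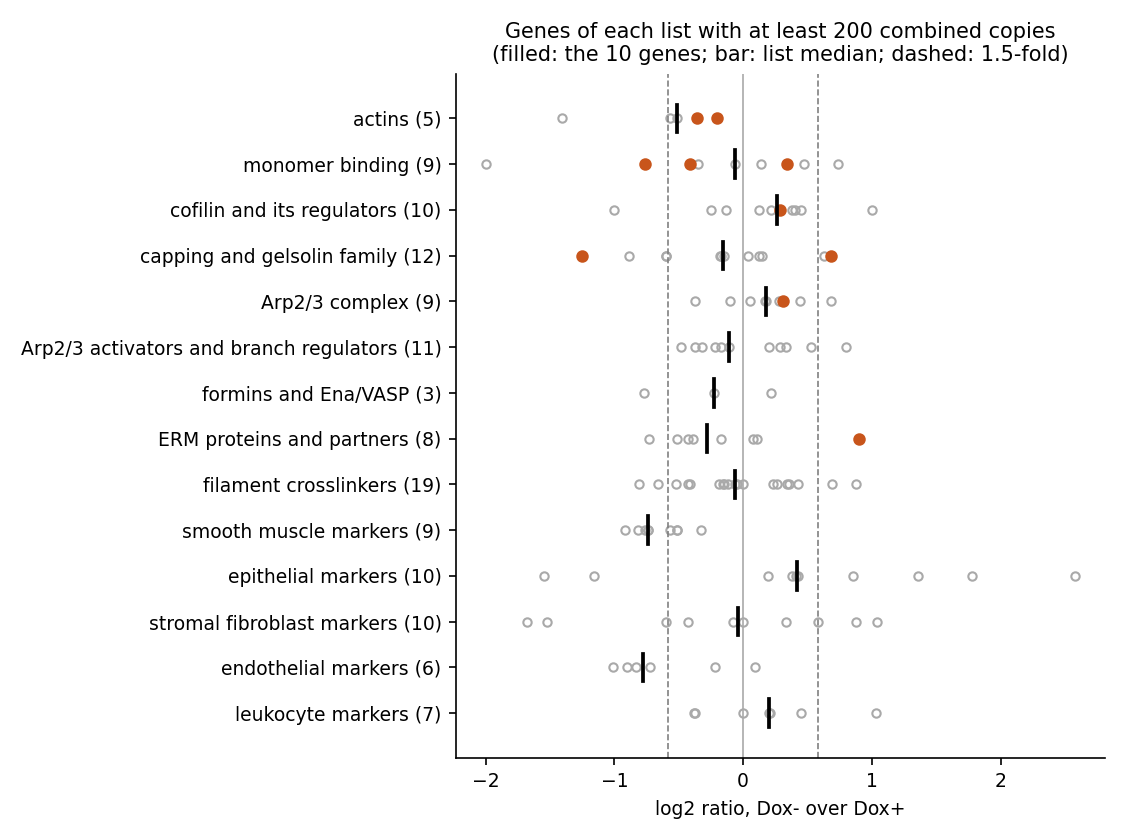
Log2 ratio of Dox- over Dox+ of the genes of 9 actin lists and 5 cell type marker lists with at least 200 combined copies (number in brackets), with the 10 genes filled, the median of the list as a bar and 1.5-fold as dashed lines. The medians run from -0.78 for endothelial markers to 0.42 for epithelial markers. Ezr lies right of all other genes of its list and Gsn left of all others of its list.

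Several of these genes are expressed at different levels in different cell types, and the marker lists differed between the libraries as well. In bulk tissue, fewer cells of a type and less RNA per cell cannot be told apart. The 10 smooth muscle markers summed to 8174 CPM in Dox+ and 5471 in Dox-, with 0 of 9 genes past 1.5-fold higher and 5 lower (Mylk, Cnn1, Des, Smtn and Synpo2). Acta2 and Actg2 are in this list and among the actins. Tagln, Mylk and Actg2, with the most copies, were each lower in Dox-. Of the 10 genes, Tmsb4x, Gsn, Actb, Actg1 and Pfn1 were also lower, while Tmsb10, Cfl1, Capza1, Arpc2 and Ezr were higher. The endothelial markers summed to 294 and 191 CPM, with 4 of 6 past 1.5-fold lower (Cdh5, Egfl7, Tie1 and Cldn5). The other 2 stayed within 1.5-fold. Pecam1 had 243 and 253 copies, a fold change of 1.07 (0.891 to 1.28), and Vwf had 177 and 148, at 0.856 (0.684 to 1.07).

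The 10 epithelial markers in the table summed to 1167 CPM in Dox+ and 1541 in Dox-, with Epcam, Elf3, Muc1 and Krt7 past 1.5-fold higher and Cldn3 and Cldn4 lower. Krt19 and Krt8 had fold changes of 1.35 and 1.14 and Cldn3 0.341, beside 1.87 for Ezr. The stromal fibroblast markers summed to 9763 and 11828 CPM, with 2 of 10 higher (Col1a2 and Lum) and 3 lower (Vim, Hoxa10 and Hoxa11). Their median log2 ratio was -0.04. Col1a1, with the most copies, had 3845 CPM in Dox+ and 5766 in Dox-, just short of 1.5-fold. Col3a1, with the next most, had 3093 and 2926 CPM. Hoxa10 and Hoxa11, which mark the uterus, had 3120 and 2573 copies in Dox+ and 1060 and 785 in Dox-. The leukocyte markers, for a cell type rich in Tmsb4x, summed to 250 and 317 CPM, with 1 of 7 higher, Laptm5, and 0 lower. The red blood cell and platelet markers summed to 23.4 and 44.1 CPM, and none of their 7 genes in the table had 200 combined copies. They did not share a direction. Hba-a1 (26 and 114 copies) and Hba-a2 (19 and 82) were higher in Dox-. Itga2b (56 and 39), Alas2 (21 and 9) and Pf4 (18 and 9) were lower. Hbb-b2 and Ppbp were at 0 in Dox+ and had 3 and 2 copies in Dox-. No marker of the muscle, epithelial, stromal, endothelial and leukocyte lists in the table was at 0 in either library. The part of these cell types in the differences of the 10 genes was not tested.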

How the data were processed

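Total RNA of 3 pooled uteri per condition (6 µg) gave 1 DGE library for Dox+ and 1 for Dox-. The authors discarded tags of adaptor alone, of poor quality or with a single copy, matched the rest (clean tags) to mm9 mRNA sequences on both strands, and deposited counts of unambiguous tags per gene, not normalized. The deposited TPM is the count per 1000000 clean tags, without length correction, computed by the authors, with 0.01 at a count of 0. CASAVA is named in the submitters' processing notes; the aligner and the restriction enzyme are not given in the sources used here. The table also holds the authors' ratios, log2 ratios, P-values and FDR, which were not used.

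Clean tags per library were recovered from the counts and the TPM, as the one whole number that gave all 14050 and 13948 TPM values of genes with a tag to within rounding. Counts were divided by these totals. Genes with at least 200 combined copies were compared, and a difference of at least 1.5-fold, in either direction, was called; with 1 library per condition no P-value was computed. For fold changes, 3 copies or fewer in a library were set to 3. Intervals are exact 95% Clopper-Pearson (ratios) or Poisson (levels) intervals. Only those of the fold changes were checked on simulated data, which were Poisson counts and so held counting error alone. Alternatives were other library sizes (TMM from edgeR 4.0.16, the median of ratios, the sum of counted tags), other limits on copies and fold, and a pseudocount of 1. Positions, transcript lengths and coding sequences came from GENCODE on NCBIM37. Python 3.11.15, scipy 1.17.1, pandas 2.3.3 and R 4.3.3 were used.

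The 10 genes and all gene lists were chosen with earlier results of these data known. The genes named are the 10 genes, Vegfa, in each actin list the 3 with the most copies and those with the highest and lowest fold change from 200 combined copies, in each marker list the 3 with the most copies, and the 3 nearest to each thymosin. One actin list, counted in the sums over all lists, and 2 genes that this rule or a count would name are not reported here.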

Additional observations from a re-analysis of the deposited data

How the results depend on the processing

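No paired analysis was possible because each condition has 1 library. With the library size set to the sum of counted tags, by TMM or by the median of ratios, each of the 10 genes kept its direction and its side of 1.5-fold, and outside its counting interval lay only Tmsb4x, at a fold change of 0.606, 0.580 and 0.576. A pseudocount of 1 moved none of the 10 out of its interval. With at least 2-fold in place of 1.5, 0 of the 10 genes were higher and 1 lower (Gsn), and 1 gene of the actin lists was higher and 4 lower; over all genes, 302 were higher and 368 lower in place of 994 and 961. Without a limit on copies, 28 of 145 genes of the actin lists were higher and 24 lower, and 2869 and 2830 of 13727 over all genes. From 1000 combined copies, 1 of the 10 genes was higher, since Ezr left. At that limit 5 of 57 genes in the actin lists were higher and 8 lower, and 209 and 215 of 1598 over all genes. An absolute log2 ratio above 0.5 changed no count of the 10 genes, but gave 17 higher and 18 lower in the actin lists and 1231 and 1168 over all genes. Without Tmsb4x, the summed fold change was 0.970 in place of 0.769. Per kilobase of transcript, the places among the 10 genes in Dox+ were 2 for Tmsb10, 3 for Cfl1, 4 for Actg1, 5 for Actb, 8 for Arpc2 and 9 for Capza1, and in Dox- 3 for Cfl1, 4 for Actg1, 5 for Actb, 7 for Arpc2, 8 for Capza1 and 9 for Gsn. The cause of these shifts is the change of filter, limit or scale itself. Depth limits the call of Capza1, whose counting interval (1.48 to 1.74) reaches below 1.5-fold, and the variation between uteri is unknown.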

Other observations

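The table's own Gene Ontology column holds further sets of actin genes, chosen after the data were seen. The 85 genes it assigns to the actin cytoskeleton include Cfl1, Capza1, Arpc2 and Ezr. Of these genes, 48 had at least 200 combined copies, with 9 at least 1.5-fold higher in Dox-, 3 lower and a median log2 ratio of 0.14. The term for actin filament capping, which includes Gsn, had 8 such genes, with 2 higher, 3 lower and a median of -0.30. Actin binding, with Tmsb10 and Ezr, had 39 such genes, 4 higher and 6 lower, and actin filament polymerization, with Arpc2, had 15, 3 higher and 2 lower. Actin cytoskeleton organization, which holds none of the 10 genes, had 43, 4 higher and 8 lower. Over all 6547 genes compared, 15.2% were at least 1.5-fold higher and 14.7% lower. These terms share genes, and they are described by counts alone. Further terms that name actin were counted but are not described here.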
